A study of Mus musculus with 6 samples.

Results

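Collagen VI and its cell surface receptors were followed in 6 mouse tibialis anterior (TA) muscles through 8 genes, which were taken by symbol from the 41709 genes of the deposited expression table. *Col6a1*, *Col6a2*, *Col6a3*, *Col6a5* and *Col6a6* encode chains of the protein, and *Antxr1*, *Antxr2* and *Cspg4* encode membrane proteins that bind it. The study electroporated one TA of male C57BL/6J mice with a pCMV6 plasmid for Flag-tagged wild-type mouse Lrpprc (LrpprcWT, n = 3) and the contralateral TA with the same plasmid carrying the P27A substitution (LrpprcP27A, n = 3), which cannot be hydroxylated at that proline. Lrpprc is an RNA-binding protein of mitochondria and a transcriptional coactivator, and the study compared the variants because hydroxylation of this proline declines in wasting muscle. RNA-seq was made from whole TA muscle, and the age of the mice and the days since electroporation are not in the sample labels. Both groups carried the Lrpprc plasmid, no muscle without it was among the 6 libraries, and electroporation reaches only some of the myofibres.

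Collagen VI is assembled from an α1 chain, an α2 chain and one of several longer chains, among them α3, α5 and α6. The trimers are joined into beaded microfilaments that tie the basement membrane of each myofibre to the interstitial matrix. In muscle the chains are made mainly by interstitial fibroblasts, and mutations of the human genes for the α1, α2 and α3 chains cause Bethlem myopathy and Ullrich congenital muscular dystrophy. The anthrax toxin receptors Antxr1 and Antxr2 bind collagen VI at the cell surface, and Antxr2 carries it into the cell for breakdown. Cspg4, also called NG2, is a proteoglycan of pericytes and other mural cells that binds the collagen VI triple helix.

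Levels are given as TPM, a unit scaled to gene length and to one fixed total per library, so that levels of different genes can be compared within a library. *Lrpprc* itself, in which plasmid and mouse transcripts are counted together, was at 35.1, 37.0 and 75.2 TPM in LrpprcWT replicates 1 to 3 and at 26.9, 29.7 and 26.0 TPM in LrpprcP27A. The groups did not overlap, LrpprcWT replicate 3 stood apart, and the difference did not pass the threshold (limma, Benjamini-Hochberg adjusted p = 0.0652). By qRT-PCR on a larger set of muscles, the study found similar *Lrpprc* mRNA with both variants. In these 6 libraries variant and *Lrpprc* level go together and cannot be told apart. The 8 myofibre markers summed to between 104300 and 115800 TPM in LrpprcP27A and between 114500 and 124200 TPM in LrpprcWT, so the defining genes of the labelled tissue were abundant in every library. Between 18603 and 19053 genes were above 0 in a LrpprcWT library and between 17774 and 18197 in a LrpprcP27A library. Mitochondrial transcripts took 40.8%, 45.2% and 36.0% of the TPM in LrpprcWT replicates 1 to 3. In LrpprcP27A they took 46.1%, 44.2% and 45.1%, so the make-up of the libraries differed between the groups. LrpprcWT replicate 2 correlated more closely with LrpprcP27A replicate 1 (r = 0.989 over log2 values of the genes tested) than with the other LrpprcWT libraries (r = 0.981 and 0.983). Its values are therefore given with each gene, and results without it are given below.

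All 9 *Col6a* and receptor genes of the mouse genome considered here, *Col6a4* included, lie on 5 chromosomes of the GRCm39 build. *Col6a1* (chr10:76543440-76562283) and *Col6a2* (chr10:76429660-76459549) are neighbours on the minus strand, 83890 bases apart with 0 protein-coding genes between them. *Col6a6* (chr9:105564724-105705561), *Col6a5* (chr9:105733270-105837858) and *Col6a4* (chr9:105866653-105973990) form a second row on the minus strand, with gaps of 27708 and 28794 bases. *Col6a3* lies alone (chr1:90693645-90771780, minus strand), as do *Antxr1* (chr6:87110835-87312803, minus strand), *Antxr2* (chr5:98030642-98179263, minus strand) and *Cspg4* (chr9:56772317-56807187, plus strand). The library kit does not mark strand, and the antisense gene *Pik3r4* overlaps *Col6a6*, so reads from their shared part cannot be told apart. Noncoding or unclassified genes also overlap *Col6a3*, *Col6a6*, *Antxr1* and *Antxr2*.

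The upstream sequences of the 3 most abundant chains are shown because these genes had the highest levels and kept similar proportions to each other in every library. Each is the 250 bases before the outermost annotated start of the gene, 5′ to 3′ on the gene's own strand, from the GRCm39 genome with GENCODE starts (*Col6a1* chr10:76562284-76562533, *Col6a2* chr10:76459550-76459799, *Col6a3* chr1:90771781-90772030, all minus strand). Capitals mark a GC box or a CCAAT box.
Col6a1: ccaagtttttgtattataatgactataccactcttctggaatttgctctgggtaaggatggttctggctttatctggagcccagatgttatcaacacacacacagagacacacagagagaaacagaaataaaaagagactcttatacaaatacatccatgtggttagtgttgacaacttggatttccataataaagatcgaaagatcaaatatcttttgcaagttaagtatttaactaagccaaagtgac
Col6a2: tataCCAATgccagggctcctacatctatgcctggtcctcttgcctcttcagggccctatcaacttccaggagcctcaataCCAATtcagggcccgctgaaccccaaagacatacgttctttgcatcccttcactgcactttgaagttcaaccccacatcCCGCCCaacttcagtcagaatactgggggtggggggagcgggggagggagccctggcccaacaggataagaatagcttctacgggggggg
Col6a3: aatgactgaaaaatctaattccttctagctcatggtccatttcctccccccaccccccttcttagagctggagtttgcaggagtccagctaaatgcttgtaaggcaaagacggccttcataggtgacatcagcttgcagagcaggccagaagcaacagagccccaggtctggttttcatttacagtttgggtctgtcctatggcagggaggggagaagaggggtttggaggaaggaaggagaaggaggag
The motifs searched on both strands were the GC box GGGCGG, the TATA box TATAAA, the CCAAT box CCAAT, the AP-1 element as TGACTCA or TGAGTCA, the E-box CACGTG and the SMAD element GTCTAGAC, none of which contains another. The *Col6a2* window held a GC box on the opposite strand that begins 90 bases before the start, and CCAAT boxes at 246 and 169 bases. The windows of *Col6a1* and *Col6a3* held none of the 6 motifs, and that of *Col6a1* had 35.6% G and C where those of *Col6a2* and *Col6a3* had 56.0% and 51.2%. The *Col6a1* window ends 281 bases before the start of the gene's canonical transcript, so it does not cover the bases next to that start. Among the other genes, *Col6a5* had a GC box at 41 bases and *Cspg4* had GC boxes at 49 and 14 bases, while *Col6a6* and *Antxr2* had none of the motifs. Over 21757 protein-coding genes, 29.9% of such windows held a GC box, 36.1% a CCAAT box, 12.5% a TATA box, 5.69% an E-box, 4.15% an AP-1 element and 0.234% a SMAD element.

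All 8 genes were lower in each LrpprcP27A library than in any LrpprcWT library, and the 3 chains that make up most of the collagen VI transcripts had LrpprcWT means 2.54 to 2.89 times their LrpprcP27A means. Of the 11611 genes with a mean of at least 1 TPM, which were tested with limma on log2(TPM + 1), 7 are members, and all 7 passed an adjusted p under 0.05 as lower. These counts stand against a broad shift of the table: 2705 genes, or 23.3% of those tested, were called lower, 1.34% were called higher, and 47.6% had every LrpprcP27A library below every LrpprcWT library. The median log2 fold change was -1.33 over the 7 tested members and -0.32 over all genes tested. The study itself had reported *Col6a2* and *Col6a6* as lower with LrpprcP27A in these 6 libraries. The members were chosen with such results known, so the calls are not independent of them.

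*Col6a1*, whose α1 chain is part of every collagen VI trimer, had the highest level of the 8 genes. It was at 131, 81.4 and 120.3 TPM in LrpprcWT replicates 1 to 3 and at 57.9, 32.6 and 40.8 TPM in LrpprcP27A replicates 1 to 3. The lowest LrpprcWT library was 1.41 times the highest LrpprcP27A library, and in both groups replicate 1 was highest and replicate 2 lowest. *Col6a1* fell by 1.33 ± 0.23 on the log2 scale (SE, n = 3 per group, limma adjusted p = 0.0154).

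*Col6a2*, the α2 chain that pairs with α1, followed the same order of libraries. Its values were 77.3, 48.2 and 72.2 TPM in LrpprcWT and 33.8, 18.3 and 23.4 TPM in LrpprcP27A. The groups were again separate, with the lowest LrpprcWT library 1.43 times the highest LrpprcP27A library. It fell by 1.37 ± 0.24 on the log2 scale (SE, n = 3 per group, limma adjusted p = 0.0154).

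*Col6a3* encodes α3, the long chain that completes most collagen VI trimers in muscle and whose C-terminal fragment is released as endotrophin. It was at 55.8, 29.1 and 52.8 TPM in LrpprcWT and at 20.4, 11.3 and 16.0 TPM in LrpprcP27A. LrpprcWT replicate 2 lay well below the other LrpprcWT libraries but still 1.43 times above the highest LrpprcP27A library. *Col6a3* fell by 1.45 ± 0.27 on the log2 scale (SE, n = 3 per group, limma adjusted p = 0.0167), and 1.42% of all genes tested had a lower log2 fold change.

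*Col6a6* and *Col6a5* encode long chains that can take the place of α3, and both were far less abundant. *Col6a6* was at 8.73, 4.16 and 5.12 TPM in LrpprcWT and at 2.99, 1.70 and 1.58 TPM in LrpprcP27A. Replicate 1 was highest in both groups, and the groups did not overlap. *Col6a6* fell by 1.16 ± 0.26 on the log2 scale (SE, n = 3 per group, limma adjusted p = 0.0242), a value that the added 1 TPM makes smaller for a gene at this level. *Col6a5* was at 0.999, 0.400 and 0.290 TPM in LrpprcWT and at 0.256, 0.0975 and 0.0540 TPM in LrpprcP27A. Its libraries did not overlap either, yet its mean of 0.349 TPM kept it out of the test. With no filter it had a log2 fold change of -0.44 ± 0.17 (SE, n = 3 per group) that did not pass (limma adjusted p = 0.132). *Col6a4*, a further chain gene outside the 8, was at 0.0116 to 0.0740 TPM in LrpprcWT and at 0.0239 to 0.0294 TPM in LrpprcP27A, with overlapping groups.

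*Antxr1*, also known as TEM8, had the largest fall of the receptors. It was at 10.4, 4.65 and 6.50 TPM in LrpprcWT and at 3.35, 1.34 and 1.92 TPM in LrpprcP27A. LrpprcWT replicate 1 was more than 2 times LrpprcWT replicate 2, and the lowest LrpprcWT library was still 1.39 times the highest LrpprcP27A library. *Antxr1* fell by 1.34 ± 0.29 on the log2 scale (SE, n = 3 per group, limma adjusted p = 0.0231). Which tested gene fell most depends on the added TPM: *Col6a3* did with 1 TPM added, whereas with 0.1 TPM *Antxr1* had a log2 fold change of -1.68 and *Col6a3* one of -1.51.

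*Antxr2*, also known as CMG2, is mutated in human hyaline fibromatosis syndrome, in which collagen VI builds up in tissues. Its values were 10.5, 6.65 and 9.01 TPM in LrpprcWT and 5.11, 3.39 and 4.18 TPM in LrpprcP27A. The libraries kept the order seen for *Col6a1*, with less distance between the groups. *Antxr2* fell by 0.89 ± 0.19 on the log2 scale (SE, n = 3 per group, limma adjusted p = 0.0223).

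*Cspg4* had the smallest difference of the tested genes. It was at 5.66, 3.85 and 4.03 TPM in LrpprcWT and at 3.32, 2.29 and 2.57 TPM in LrpprcP27A. The highest LrpprcP27A library came close to the lowest LrpprcWT library, which was 1.16 times as high. *Cspg4* fell by 0.56 ± 0.18 on the log2 scale, just past the threshold (SE, n = 3 per group, limma adjusted p = 0.0494), and 21.8% of all genes tested had a lower log2 fold change.

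**Figure D1:**
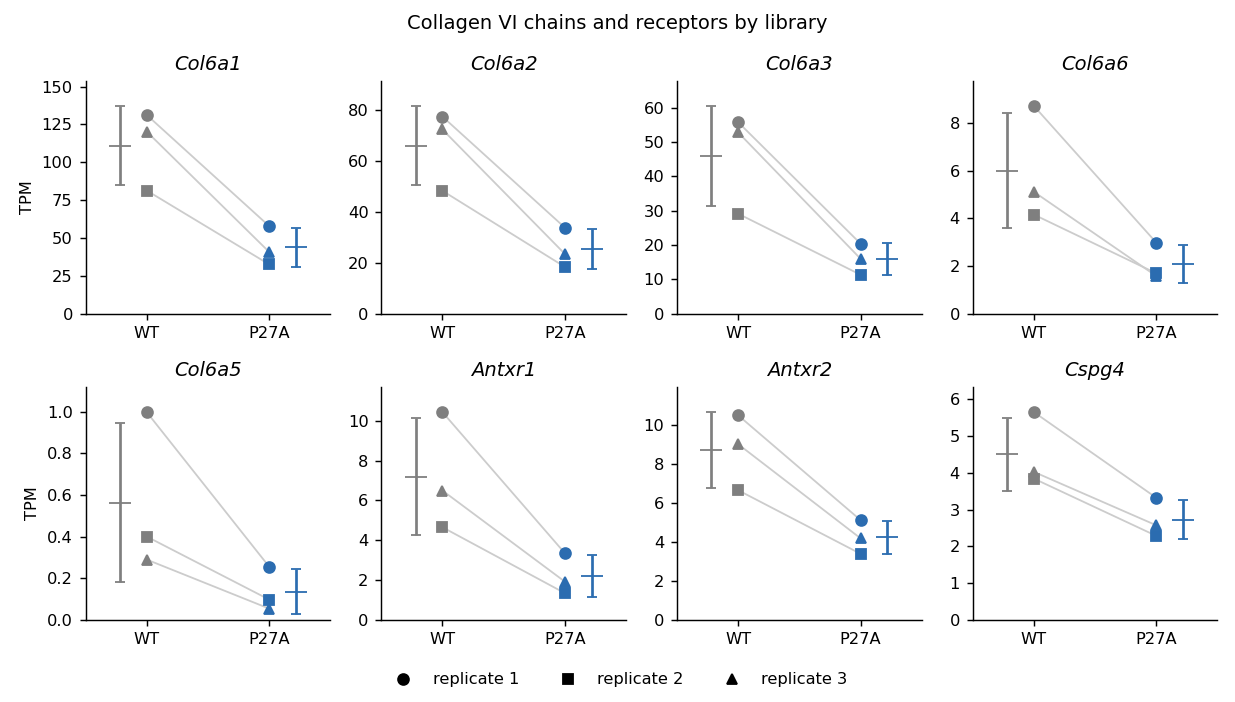
TPM (vertical axes, each from 0) of the 8 genes in the LrpprcWT (grey) and LrpprcP27A (blue) libraries; symbols mark the replicate number, lines join libraries of the same number, and bars beside the points are the mean ± SD of 3 libraries. In every panel the 3 LrpprcP27A points lie below the 3 LrpprcWT points, and replicate 1 is the highest of its group.

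Muscles with the same replicate number, taken as the contralateral pair of one mouse, gave a like fall in each pair. LrpprcP27A *Col6a1* was 0.441, 0.400 and 0.339 times LrpprcWT in pairs 1 to 3, and *Col6a3* was 0.366, 0.389 and 0.303 times. *Antxr1* was at 0.288 to 0.321 times and *Antxr2* at 0.464 to 0.509 times its paired LrpprcWT muscle. *Cspg4* ranged from 0.588 to 0.639 times, and its ratio was above those of the other 7 genes in every pair. With the replicate number as a block in limma, all 7 tested members were called lower (adjusted p from 7.5e-08 for *Col6a3* to 0.0025 for *Cspg4*), beside 48.4% of all genes tested.

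The chains fell by more than the typical gene of the table, whereas *Cspg4* did not pass once the libraries were set to a common level. Median-of-ratios scaling, which sets the typical gene of each library to a common level, brought the median log2 fold change of all genes from -0.32 to -0.0047 and that of the tested members from -1.33 to -0.96. After it *Col6a1* (-0.96, adjusted p = 0.0330), *Col6a2* (adjusted p = 0.0329), *Col6a3* (-1.09, adjusted p = 0.0330), *Antxr1* (-1.05, adjusted p = 0.0491) and *Antxr2* (-0.57, adjusted p = 0.0435) were called lower by limma, where 6.03% of all genes were. *Col6a6* (-0.87, adjusted p = 0.0545) and *Cspg4* (-0.27, adjusted p = 0.233) did not pass. With the replicate block on the same scaling 6 of the 7 passed, *Col6a6* among them (adjusted p = 0.0048) and *Cspg4* not (adjusted p = 0.079), beside 15.8% of all genes.

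The calls on the deposited scale were sensitive to single libraries. Without LrpprcWT replicate 3 none of the 7 members passed (0 by limma adjusted p, with adjusted p of 0.0931 and above, against 7 at an unadjusted p under 0.05). Each log2 fold change stayed below 0, as it must where the groups do not overlap. Without LrpprcWT replicate 1 only *Col6a1* and *Col6a2* were called, and without LrpprcP27A replicate 2 or 3 only the *Col6a1*, *Col6a2* and *Col6a3* chains were. Without LrpprcP27A replicate 1 *Cspg4* alone was lost (adjusted p = 0.0539). Without LrpprcWT replicate 2, the library nearest to the other group, all 7 were called and the fall of *Col6a3* grew to a log2 fold change of -1.74. *Col6a6*, *Antxr1*, *Antxr2* and *Cspg4* also missed the threshold after rescaling over nuclear protein-coding genes and after quantile normalization. No member passed it when genes of every level were tested. The Kruskal-Wallis test called 0 of all genes tested. Its smallest possible p with 3 against 3 libraries is 0.0495, which hardly leaves room for adjustment, so its result does not bear on the members.

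**Figure D2:**
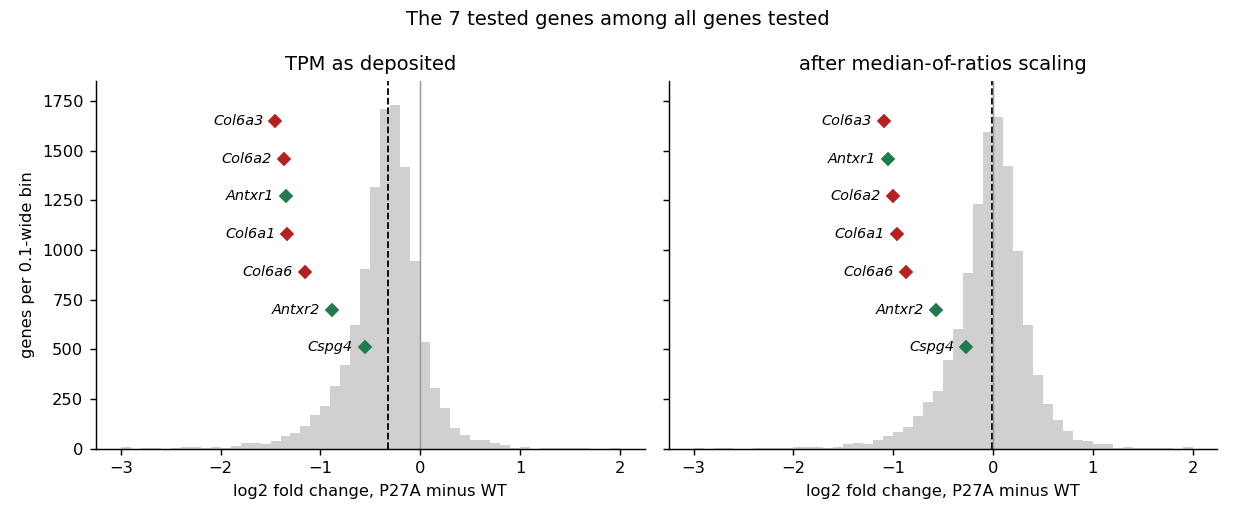
Histograms of log2 fold changes on the log2(TPM + 1) scale, LrpprcP27A minus LrpprcWT, of the 11611 genes tested (horizontal axis; vertical axis, genes per bin, with values past the axis ends counted in the end bins), on TPM as deposited (left) and after median-of-ratios scaling (right). Diamonds mark the chains (red) and receptors (green) at heights chosen for legibility and dashed lines the median of all genes, at -0.32 and -0.0047; the chains and *Antxr1* lie far to the left of the median in both, and *Cspg4* lies within the body of the histogram.

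The chains kept similar shares of the collagen VI transcripts, whose total was lower in LrpprcP27A. The *Col6a* members summed to 274, 163 and 251 TPM in LrpprcWT and to 115, 64.1 and 81.9 TPM in LrpprcP27A. All 3 LrpprcP27A sums were below all LrpprcWT sums, a log2 difference of -1.40 ± 0.34 (SE, two-sided exact permutation p = 0.1, the smallest that 3 against 3 libraries can give). *Col6a1* took 48.6% ± 1.1 of the sum in LrpprcWT and 50.3% ± 0.52 in LrpprcP27A (SD, n = 3 each). *Col6a2* took 28.8% ± 0.66 and 28.8% ± 0.38, *Col6a3* 19.7% ± 1.7 and 18.3% ± 1.1, and *Col6a6* 2.59% ± 0.57 and 2.39% ± 0.40 in the same groups.

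Ratios of genes within a library do not depend on how libraries are scaled, and 6 were compared. The ratio of *Col6a2* to *Col6a1* was 0.589, 0.592 and 0.600 in LrpprcWT and 0.583, 0.563 and 0.574 in LrpprcP27A, a log2 difference of -0.051 ± 0.017 (SE, exact permutation p = 0.1, adjusted over the 6 ratios 0.2). The ratio of *Col6a3* to *Col6a1* overlapped between the groups, with 0.358 to 0.439 in LrpprcWT and 0.348 to 0.392 in LrpprcP27A (log2 difference -0.16 ± 0.11, exact permutation p = 0.2, adjusted 0.3). That of *Col6a6* to *Col6a3* was 0.132 ± 0.031 in LrpprcWT and 0.132 ± 0.028 in LrpprcP27A (SD, n = 3 each), and it followed the replicate number, with 0.0969 and 0.0989 in the replicates 3 and 0.143 to 0.156 in the others (log2 difference -0.00052 ± 0.29, exact permutation p = 1). The SE of this last difference would leave a sizeable change unseen.

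On the group means *Antxr2* and *Cspg4* were higher and *Antxr1* was lower relative to *Col6a1* in LrpprcP27A, and with 3 libraries a group no ratio can reach an exact p under 0.1. *Antxr2* stood at 0.0799, 0.0817 and 0.0749 of the *Col6a1* level in LrpprcWT and at 0.0883, 0.104 and 0.102 in LrpprcP27A, higher in all 3 pairs (log2 difference 0.31 ± 0.084, exact permutation p = 0.1, adjusted 0.2). *Cspg4* stood at 0.0431, 0.0473 and 0.0335 of *Col6a1* in LrpprcWT and at 0.0574, 0.0701 and 0.0631 in LrpprcP27A, also higher in all 3 pairs (log2 difference 0.63 ± 0.17, exact permutation p = 0.1, adjusted 0.2). *Antxr1* had ratios of 0.0540 to 0.0795 and of 0.0412 to 0.0579, which overlap (log2 difference -0.38 ± 0.23, exact permutation p = 0.3, adjusted 0.36).

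**Figure D3:**
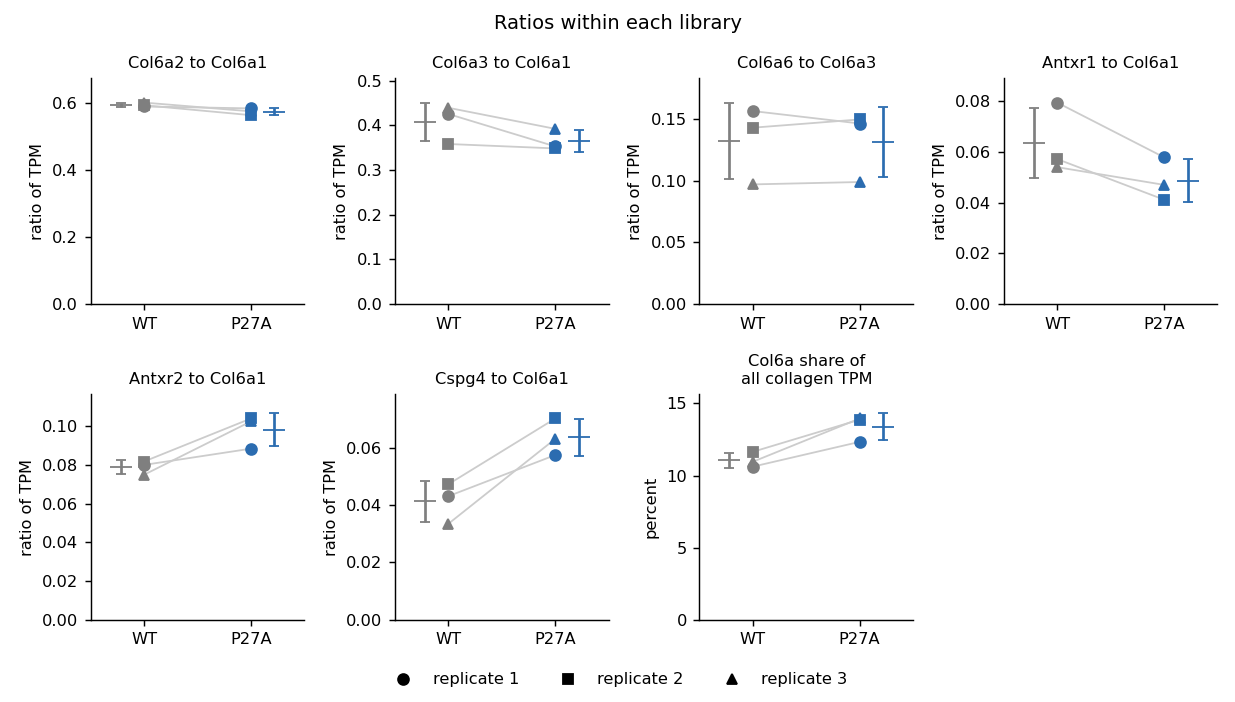
Ratios of TPM within each library for 6 pairs of genes, and the percent of all collagen-chain TPM on *Col6a* genes (vertical axes, each from 0), in LrpprcWT (grey) and LrpprcP27A (blue); symbols mark the replicate number, lines join libraries of the same number, and bars are the mean ± SD of 3 libraries. *Antxr2* and *Cspg4* relative to *Col6a1* and the collagen VI percent are higher in all 3 LrpprcP27A libraries, while the ratio of *Col6a6* to *Col6a3* follows the replicate number.

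In order of mean level over the 6 libraries the genes ran *Col6a1* (77.4 TPM), *Col6a2* (45.5), *Col6a3* (30.9), *Antxr2* (6.47), *Antxr1* (4.70), *Col6a6* (4.04), *Cspg4* (3.62) and *Col6a5* (0.349). The order of *Col6a1* over *Col6a2*, *Col6a2* over *Col6a3* and *Col6a3* over *Antxr2* held in 6 of 6 libraries. *Antxr2* and *Antxr1* were nearly level in LrpprcWT replicate 1, where their ratio was 1.01, and differed 2.52-fold at most. *Antxr1* exceeded *Col6a6* in 5 of 6 libraries and *Col6a6* exceeded *Cspg4* in 3 of 6, so these neighbours do not differ beyond their spread.

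Most other collagens were lower in LrpprcP27A as well, and on the group means their total was reduced more than that of collagen VI. Of the 23 collagen-chain genes tested outside the *Col6a* genes, 18 were called lower and 13 after median-of-ratios scaling, beside 23.3% and 6.03% of all genes tested. The 38 other collagen genes summed to 2307, 1238 and 2037 TPM in LrpprcWT and to 819, 398 and 505 TPM in LrpprcP27A, 3.24-fold higher in LrpprcWT on the means, against 2.63-fold for collagen VI. The collagen VI share of all collagen TPM was therefore higher in LrpprcP27A, at 12.3%, 13.9% and 14.0%, than in LrpprcWT, at 10.6%, 11.6% and 11.0% (difference 2.32 ± 0.61 percentage points, SE, exact permutation p = 0.1). This direction rests on the most abundant fibrillar chains, *Col1a1*, *Col1a2* and *Col3a1*, which took 51.3% to 57.5% of collagen TPM in LrpprcWT and 35.7% to 46.2% in LrpprcP27A. Without these 3, a choice made after their values were seen, the share was 24.2% ± 2.9 in LrpprcWT and 22.2% ± 0.65 in LrpprcP27A (SD, n = 3 each), a difference of -2.02 percentage points with overlapping groups (exact permutation p = 0.3).

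Genes that work with collagen VI were called lower in part, and in each of the 4 lists by fewer genes after median-of-ratios scaling. Over all genes tested, 23.3% were called lower on the deposited scale and 6.03% after that scaling. Of 12 matrix partners, 9 were tested, 7 were called lower (4 after scaling) and 0 higher, and their median log2 fold change was -1.11 beside -0.32 over all genes tested. *Mfap2*, a microfibril glycoprotein, had the largest fall among them, from 24.7, 15.8 and 25.1 TPM to 8.29, 2.95 and 3.23 TPM (log2 fold change -2.06 ± 0.32, SE, n = 3 per group, limma adjusted p = 0.0126). *Matn1*, a cartilage matrilin, was listed at 0 in all 6 libraries. Of 7 integrin receptor genes, 5 were tested, 3 were called lower and 0 higher, with a median of -0.67. *Itgav*, the αv subunit, had the lowest log2 fold change with 1 TPM added (-0.78 ± 0.24, SE, n = 3 per group, limma adjusted p = 0.0449), while on the mean TPM *Itgb3* differed more, 2.47-fold against 2.03-fold. After scaling 0 of the 3 calls were left.

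Of 17 genes of collagen chain modification and export, 16 were tested, 8 were called lower and 0 higher, with a median of -0.56. After scaling 4 were lower and 1 was higher, *Mia3*, a protein of collagen export from the endoplasmic reticulum (log2 fold change 0.72, limma adjusted p = 0.0292). *Mia3* was also the 1 gene of the list called higher with the replicate block. Of all 11611 genes tested, 609 were called higher after scaling and 312 with the block, so 1 higher call in such a list is not unusual. *Crtap*, part of the prolyl 3-hydroxylase complex, had the lowest log2 fold change with 1 TPM added, from 23.8, 15.9 and 25.8 TPM to 9.66, 5.18 and 7.75 TPM (log2 fold change -1.43 ± 0.24, SE, n = 3 per group, limma adjusted p = 0.0138). Its libraries did not overlap, and on the mean TPM *Fkbp10* (3.10-fold) and *Plod2* (2.95-fold) differed slightly more than *Crtap* (2.90-fold). Of the 5 proteases, 5 were tested, 4 were called lower (3 after scaling) and 0 higher, with a median of -1.03. *Mmp14*, a membrane-bound collagenase, fell most, from 32.3, 16.1 and 23.9 TPM to 11.6, 5.42 and 5.14 TPM (log2 fold change -1.61 ± 0.31, SE, n = 3 per group, limma adjusted p = 0.0175). After median-of-ratios scaling, with a median of -0.0047 over all genes, the medians were -0.79 for matrix partners, -0.34 for integrins, -0.21 for modification and export and -0.70 for proteases.

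Several markers of fibroblasts, the main makers of collagen VI in muscle, were also called lower, beside 23.3% of all genes tested and 6.03% after median-of-ratios scaling. In bulk muscle, fewer cells of a type and less RNA per cell cannot be told apart. Of 10 fibroblast and fibro-adipogenic progenitor markers, 6 were called lower (4 after scaling), and their sum ranged from 311 to 504 TPM in LrpprcWT and from 169 to 250.4 TPM in LrpprcP27A, with the libraries in the order of *Col6a1*. Of 8 macrophage markers, 6 were tested and 6 called lower (2 after scaling), with sums of 119 to 269 and 40.5 to 96.5 TPM. Endothelial markers had 3 of 8 called lower (0 after scaling), with sums of 224 to 392 and 160 to 223 TPM. Pericyte and smooth muscle markers, which mark the cells that carry *Cspg4*, had 1 of 8 called lower (0 after scaling), with sums of 347 to 529 and 287 to 376 TPM that overlapped. Myofibre markers had 2 of 8 called lower, a share near that of all genes, and 0 after scaling, where their median log2 fold change turned from -0.068 to 0.31. Tenocyte markers had 1 of 5 tested called lower (0 after scaling), also near that share, satellite cell markers 2 of 3 (1 after scaling), Schwann cell markers 0 of 3 and adipocyte markers 0 of 2. No marker on any list was at 0 in all libraries.

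Set against these sums, a choice made after the values were seen, collagen VI was lower relative to fibroblast markers, by less than on its own. The *Col6a* sum was 0.544, 0.526 and 0.499 of the fibroblast marker sum in LrpprcWT and 0.460, 0.379 and 0.370 in LrpprcP27A. The groups did not overlap, and the log2 difference was -0.38 against -1.40 for the sum itself (exact permutation p = 0.1). The fibroblast sum is weighted by level, most by *Dpt*, *Clec3b* and *Lum* (means of 92.0, 85.4 and 76.0 TPM in LrpprcWT). These had log2 fold changes of -1.39, -1.05 and -1.39. *Smoc2*, *Dpep1*, *Ly6a* and *Pi16*, not called lower, had log2 fold changes of -0.63 to -0.18. The difference of -0.38 thus depends on the markers summed and does not measure fibroblast number. Relative to the macrophage markers the log2 difference was 0.0091 (exact permutation p = 1). Relative to myofibre markers the difference was -1.30, to pericyte and smooth muscle markers -1.01 and to endothelial markers -0.70, with non-overlapping groups in each (exact permutation p = 0.1). *Antxr2* relative to the fibroblast sum differed by -0.016 (exact permutation p = 0.9) and *Antxr1* by -0.71 (exact permutation p = 0.2). *Cspg4* differed by -0.33 relative to the pericyte and smooth muscle sum (exact permutation p = 0.2) and by -0.018 relative to the endothelial sum (exact permutation p = 0.9). The part of cell numbers in the fall of the 8 genes was not tested.

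**Figure D4:**
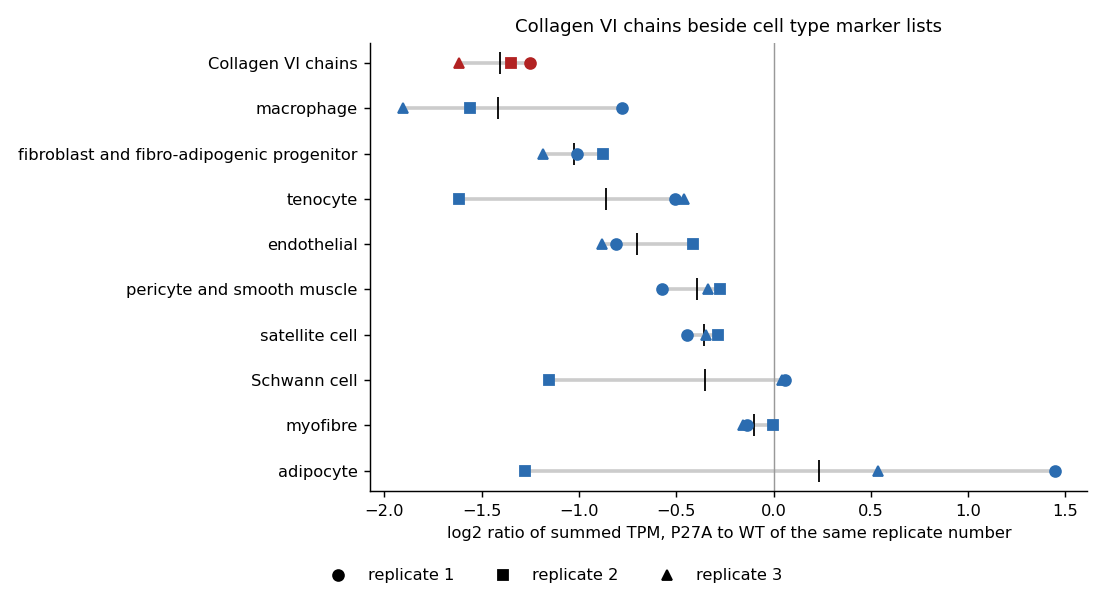
Log2 ratio of summed TPM in LrpprcP27A to LrpprcWT of the same replicate number (horizontal axis, 0 marks no difference) for the *Col6a* chains (red) and 9 lists of cell type markers (blue, rows); symbols mark the replicate number, grey bars span the 3 pairs and ticks are their mean. The *Col6a* sum was lower in all 3 pairs, as were the macrophage, fibroblast, tenocyte, endothelial, pericyte and satellite cell sums. The myofibre sum was also lower in all 3 pairs but stayed near 0, and the Schwann cell and adipocyte sums went either way.

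The 7 tested genes also varied together within a group. The libraries ran LrpprcWT 1, 3, 2 and then LrpprcP27A 1, 3, 2 from high to low in 6 of the 8 genes, *Col6a5* and *Col6a6* being the exceptions. This order was read from *Col6a1*, which is itself counted among the 6. Of all genes tested, 7.46% had this order. As a description over 6 libraries, with group means removed, deviations on log2(TPM + 1) correlated with those of *Col6a1* at r = 0.999 for *Col6a2*, 0.971 for *Col6a3*, 0.975 for *Antxr2*, 0.940 for *Antxr1*, 0.840 for *Cspg4* and 0.828 for *Col6a6*. How many of all genes tested reach such an r was not counted. The libraries share their scaling and, within a pair, what the muscles have in common, and neither was separated from this likeness.

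Genes outside the 8 whose pattern was most like the mean of the 4 tested *Col6a* chains were *Postn*, *Ccdc8*, *Col14a1*, *Col5a1* and *Gab1*, by Pearson's r of 0.9986 to 0.9994 over the 6 libraries. *Postn* encodes periostin, a matricellular protein, and was at 56.0 ± 28.9 TPM in LrpprcWT and 6.11 ± 4.0 TPM in LrpprcP27A (SD, n = 3 each). *Col14a1* and *Col5a1*, collagens that sit on or within collagen fibrils, were at 18.1 ± 7.9 and 53.8 ± 16.6 TPM in LrpprcWT and at 3.52 ± 1.9 and 16.2 ± 6.3 TPM in LrpprcP27A (SD, n = 3 each). *Ccdc8* was at 1.62 ± 0.36 and 0.642 ± 0.19 TPM and *Gab1*, an adaptor of receptor tyrosine kinases, at 9.19 ± 0.93 and 6.58 ± 0.69 TPM in the same groups. Pearson's r does not measure the size of a fall, and *Gab1* was not called lower (log2 fold change -0.43 ± 0.14, SE, n = 3 per group, limma adjusted p = 0.0515). A high r is common here, since 32.8% of the genes tested had r above 0.9 with the same mean and 1.36% had r above 0.99.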

How the data were processed

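RNA was extracted from whole TA muscle, and libraries were made with a kit that does not mark strand. Per the study's methods, the authors trimmed reads and mapped them against GRCm39 with CLC Genomics Workbench, and the deposited values are TPM of 41709 genes in 6 libraries. TPM keeps no read depth, so the depth per sample and its counting error are unknown. Groups were taken from the sample labels.

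Genes with a mean of at least 1 TPM (11611) entered the test as log2(TPM + 1). LrpprcP27A was set against LrpprcWT by limma 3.58.1 (R 4.3.3; linear model, empirical Bayes with a trend), and p-values were adjusted by Benjamini-Hochberg over these genes, with a threshold of 0.05. The added 1 TPM makes fold changes of low genes smaller than they are. Sums, ratios and shares were compared by two-sided exact permutation tests over the 6 libraries (Python 3.11.15, scipy 1.17.1). The fit was also run on simulated data with independent noise and equal numbers of raised and lowered genes. That simulation held no pairing and no one-sided shift of the table, so it does not bear on the calls given here. Positions and gene starts came from GENCODE on GRCm39, and 7 of the 8 genes had an upstream window to search.

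Both groups share library numbers, and the muscles are contralateral. Deviations from the group means correlated at 0.363, 0.528 and 0.356 in same-numbered libraries and at -0.362 to 0.00402 in the others over 11611 genes, so the number was used as a block in an alternative fit. In the main fit p-values rest on the spread between 3 muscles a group, which limma draws toward a trend over all genes tested. In the block fit they rest on the spread left after the pairs are taken out. An exact permutation p cannot fall below 0.1 with 3 against 3 libraries.

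The genes named are the 8 members, *Col6a4*, the largest called decrease and increase of each pathway list, and the 5 genes most like the *Col6a* mean. *Pik3r4*, *Col1a1*, *Col1a2*, *Col3a1*, *Itgb3*, *Fkbp10*, *Plod2*, *Mia3* and *Lrpprc* fall outside this rule and were chosen after values were seen. The same holds for the fibroblast markers *Dpt*, *Clec3b*, *Lum*, *Smoc2*, *Dpep1*, *Ly6a* and *Pi16*. The members and lists were chosen with earlier results of these data known. Alternatives tried were a pseudocount of 0.1, no filter on level, a minimum mean of 5 TPM, limma without the trend, the Kruskal-Wallis test of the study's methods, the replicate block, 3 other scalings and each library left out in turn.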

Additional observations from a re-analysis of the deposited data

How the results depend on the processing

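All 109 log2 fold changes of members under the alternatives were below 0. Most of these signs were fixed in advance. A changed test, filter or block leaves the fold change as it was. With groups that do not overlap, leaving out a library or changing the pseudocount cannot turn it. Only the other scalings could have changed a sign. The number of members called lower, 7 of 7 tested, became 0 of 8 with no filter (limma over 21450 genes, 8 at an unadjusted p under 0.05), 4 of 4 with a mean of at least 5 TPM, 0 with the Kruskal-Wallis test (7 at an unadjusted p under 0.05), 3 with rescaling over nuclear protein-coding genes, 3 with quantile normalization and 0 to 7 with each library left out. *Cspg4* passed in 4 of its 15 alternatives and *Col6a1* in 13 of 16, with the Kruskal-Wallis test counted among them. The p of that test cannot fall below 0.0495 with 3 against 3 libraries, so its calls of 0 were all but fixed in advance. The number of all genes called lower, 2705, became 42, 1560, 0 (5530 at an unadjusted p under 0.05), 634 and 518 under the same settings in that order, 700 with median-of-ratios scaling, 5619 with the replicate block and 15 (without LrpprcWT replicate 3) to 6913 (without LrpprcWT replicate 2) with each library left out. The median of all genes moved from -0.32 to -0.17 with rescaling and to 0.038 with quantile normalization. The difference in the *Col6a* sum became 0.0091 relative to macrophage markers and that in the collagen VI share -2.02 percentage points without *Col1a1*, *Col1a2* and *Col3a1*, both added after the data were seen. The log2 ratio of *Col6a6* to *Col6a3*, -0.00052, became 0.30 with 1 TPM added to both genes and -0.21 to 0.19 with each library left out. The replicate block changed no member's call on the deposited scale. The causes were not tested. Genes under 1 TPM, *Col6a5* among them, rest on a level whose error is unknown.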
